A study of Mus musculus with 20 samples.

Results

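Cxcl9, Cxcl10 and Cxcl11 are the 3 chemokine genes whose protein products bind the receptor Cxcr3. They were taken as the genes that the array platform's annotation names with these symbols, 3 of the 18193 genes on the platform. The array carried 5 probe sets for them, 2 for Cxcl9, 1 for Cxcl10 and 2 for Cxcl11, and 4 of these were bright enough to be tested. RNA of whole liver was measured on 20 Affymetrix Mouse430_2 arrays, from male C57BL/6 mice aged 8 to 12 weeks. The groups were 5 non-manipulated controls, 3 mice with minor trauma, 4 mice with severe trauma and 1.5 h of hemorrhagic shock (called shock below), and 4 each after that injury and 1 h or 4.5 h of resuscitation. What was done as minor trauma, and when, is not stated in the labels, the control mice were not operated on, and each group after shock carries both the blood loss and the severe trauma. The labels did not say that the arrays of a group came from separate experiments, so the p values measure the spread between these arrays.

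Cxcl9 (also called Mig), Cxcl10 (IP-10) and Cxcl11 (I-TAC) are small secreted proteins that draw activated T cells and natural killer cells, which carry Cxcr3, into inflamed tissue. Interferon gamma signals through the kinases Jak1 and Jak2 to induce all of them, and Cxcl9 is known to depend most strictly on this route. Cxcl10 is also induced by type I interferons and by NF-kB, downstream of cytokines and Toll-like receptors. In the liver, hepatocytes, sinusoidal endothelial cells and macrophages are known to make these chemokines. The C57BL/6 strain is known to carry a frameshift in Cxcl11, so that its transcript does not encode the full protein, and RefSeq lists the gene in this strain as a transcribed pseudogene.

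Levels are log2 of the authors' MAS5 signal plus 6, quantile normalized over the arrays, and the median of every array is then 4.604. Differences are between group means on this scale, with standard errors and p values from 1 limma model of all 12832 genes tested, adjusted over them by Benjamini and Hochberg in each comparison. A gene is called changed at an adjusted p of at most 0.05. The arrays labelled control 5 and minor trauma 3 stood apart from their groups. Across genes, control 5 correlated best with minor trauma 2 (r = 0.983), not with another control. Minor trauma 1 and 2 in turn correlated best with control 5 (r = 0.98 and 0.983), not with an array of their own group. Minor trauma 3 had the lowest array weight, 0.177, where the other arrays had weights of 0.547 to 2.18. A poly-A spike-in control, dap, divided the arrays into 2 sets: it read 374 to 1830 on 10 arrays (2 per group, the spiked set) and 0.252 to 3.26 on the others. Results that differ between these sets are given within each. The authors' values carried no scaling of arrays to each other. Without scaling, the median difference of all genes from control was -0.27 at 4.5 h and -0.12 at 1 h, against -0.09 and -0.07 after normalization.

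The promoter windows of Cxcl9 and Cxcl10 are shown, 2 of the 3 genes, which differed in timing as given further on. That of Cxcl11 was not analysed here. They are the 250 bases before the RefSeq start in build GRCm38.p6, both on the minus strand and written 5′ to 3′. The Cxcl9 window is chr5:92328080-92328329 and the Cxcl10 window chr5:92348890-92349139. Capitals mark matches, on either strand, to an interferon-stimulated response element (GAAA and, 2 bases further on, GAAA again), a gamma-activated sequence (TTCNNNGAA), an AP-1 site (TGANTCA) or the NF-kB consensus.
Cxcl9: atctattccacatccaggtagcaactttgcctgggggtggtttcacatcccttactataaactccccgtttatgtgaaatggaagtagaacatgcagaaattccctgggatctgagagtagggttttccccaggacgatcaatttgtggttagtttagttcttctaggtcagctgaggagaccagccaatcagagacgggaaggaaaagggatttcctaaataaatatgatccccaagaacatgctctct
Cxcl10: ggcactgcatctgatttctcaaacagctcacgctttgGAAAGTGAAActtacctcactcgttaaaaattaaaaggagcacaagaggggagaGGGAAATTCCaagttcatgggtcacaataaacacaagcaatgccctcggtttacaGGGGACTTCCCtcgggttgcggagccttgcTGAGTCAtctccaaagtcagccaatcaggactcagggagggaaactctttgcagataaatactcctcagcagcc

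The Cxcl10 window held 1 interferon-stimulated response element at bases -213 to -204 from the start, NF-kB matches at -159 to -150 and, overlapping each other, at -104 to -95 and -103 to -94, and 1 AP-1 match at -74 to -68. It held no match to the gamma-activated sequence. None of these letter patterns was found in the Cxcl9 window. Among 32851 promoter windows of the same length, 2.98% held the interferon-stimulated response element, 7.02% the gamma-activated sequence, 6.75% the AP-1 site and 7.25% the NF-kB consensus. A match is a description of letters, and its absence from 250 bases says nothing of sites elsewhere. Only exact matches were counted, so sites within either window that depart from these patterns were not looked for.

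Cxcl9 was not called in shock and rose mainly between 1 h and 4.5 h of resuscitation. Its log2 level on the 5 control arrays was 6.85, 7.12, 7.32, 7.38 and 8.03. It was 7.13, 6.85 and 7.04 after minor trauma and 6.79, 7.74, 7.30 and 7.38 in shock. All arrays of these 3 groups lay in 1 overlapping range. At 1 h of resuscitation the level was 8.42, 8.26, 9.01 and 7.79, and at 4.5 h it was 11.10, 12.31, 11.95 and 11.40. The 1 h arrays lay above all shock arrays, as was so for 3.73% of all genes, but overlapped the controls through control 5. Every 4.5 h array lay above every other array; a gap of this kind was found for 12.1% of genes against control, 11.7% against minor trauma, 17% against shock and 16.1% against 1 h.

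Against control (7.34 ± 0.44, SD, n = 5), Cxcl9 was 4.35 ± 0.263 log2 units (20.4-fold) higher at 4.5 h (11.69 ± 0.55, SD, n = 4, limma adjusted p = 6.29e-11). Of all genes tested, 15.1% were called higher in this comparison. In the deposited signals, Cxcl9 read 99.5 to 267 in controls and 1477 to 4414 at 4.5 h. At 1 h (8.37 ± 0.50, SD, n = 4) it was 1.03 ± 0.263 (2.04-fold) above control (limma adjusted p = 0.0134), in a comparison in which 4.61% of genes were called higher. That call was lost without the array labelled 1 h replicate 3 (0.814, adjusted p = 0.0754), without scaling (0.962, adjusted p = 0.0676) and within each poly-A set (1.38 with adjusted p = 0.0881 in the spiked set, 0.703 with adjusted p = 0.394 in the other). Over the alternatives other than leaving out single arrays, p ran from 0.00231 to 0.394. The rise from 1 h to 4.5 h was 3.32 ± 0.277, or 9.99-fold (limma adjusted p = 1.17e-08), where 14.9% of genes were called higher. Shock and minor trauma were not called against control, at -0.04 ± 0.263 (limma adjusted p = 0.972) and -0.34 ± 0.286 (adjusted p = 0.547), where 3.11% and 3.44% of all genes were called. The share for minor trauma, 441 genes, rested on single arrays: limma called 0 without minor trauma 3, 73 to 284 without 1 of controls 1 to 4, 1223 without control 5, 931 and 853 without minor trauma 1 or 2, and 0 when only these 2 groups were fitted. Against minor trauma Cxcl9 was 1.36 higher at 1 h (limma adjusted p = 0.00471, with 4.77% of genes called higher) and 4.68 higher at 4.5 h (adjusted p = 2.39e-10, with 10.7%), and against shock it was 4.39 higher at 4.5 h (adjusted p = 1.39e-10, with 15.8%). The call at 1 h against minor trauma was lost without scaling (1.07, adjusted p = 0.0589), and over the alternatives p ran from 0.00152 to 0.371. From shock to 1 h the difference of 1.07 ± 0.277 was not called (limma adjusted p = 0.0667). It was called without control 5 (1.07, adjusted p = 0.038), without 1 h replicate 4 (1.26, adjusted p = 0.0341) and without 4.5 h replicate 2 (1.07, adjusted p = 0.0495). The second Cxcl9 probe set, dimmer and above the array median on 2 of 5 control arrays, rose by 3.36 ± 0.318 at 4.5 h (limma adjusted p = 5.1e-08) and showed 0.57 at 1 h (adjusted p = 0.336). The late rise was therefore seen by both probe sets and the early one called by only 1 of the 2.

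Cxcl10 had most of its rise by 1 h. Its level on the control arrays was 5.29, 5.78, 5.69, 5.33 and 5.94. It was 6.70, 5.85 and 5.47 after minor trauma and 6.89, 7.34, 7.53 and 5.79 in shock. In the shock group 3 of the 4 arrays lay above all controls, and the array labelled shock replicate 4 lay among them. At 1 h the level was 8.79, 9.73, 9.99 and 8.21, and at 4.5 h it was 9.50, 9.82, 10.82 and 10.55. Every array of these 2 groups lay above every array of the other 3, and the 1 h and 4.5 h groups overlapped each other. At 1 h, 4.45% of all genes had every array above every control, 8% above every minor trauma array and 3.73% above every shock array. At 4.5 h these shares were 12.1%, 11.7% and 17%.

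Against control (5.61 ± 0.28, SD, n = 5), Cxcl10 was 3.57 ± 0.374 (11.9-fold) higher at 1 h (9.18 ± 0.83, SD, n = 4, limma adjusted p = 8.31e-07), the rise ranked 28th among all genes tested. At 4.5 h (10.17 ± 0.62, SD, n = 4) it was 4.57 ± 0.374 (23.7-fold) higher (limma adjusted p = 5.78e-09) and ranked 23rd, where Cxcl9 ranked 28th. From shock to 1 h it rose by 2.29 ± 0.394, or 4.9-fold (limma adjusted p = 0.00316), in a comparison in which 0.873% of genes were called higher. In shock the difference from control, 1.28 ± 0.374 (2.43-fold), did not pass the test (limma adjusted p = 0.0677). It did pass without shock replicate 4 (1.64, limma adjusted p = 0.0113) and without 1 h replicate 4 (1.28, adjusted p = 0.0472). It also passed within the spiked set (1.87, adjusted p = 0.0289) and without scaling (1.23, adjusted p = 0.0208). Over the alternatives other than leaving out single arrays, p ran from 0.0159, the unadjusted exact permutation p, to 0.631. On the 2 shock arrays of the other set, the mean lay only 0.701 above that set's controls. Minor trauma was not called (0.40 ± 0.407, limma adjusted p = 0.626).

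From 1 h to 4.5 h Cxcl10 differed by 0.99 ± 0.394, with a 95% interval of 0.174 to 1.81, and was not called (limma adjusted p = 0.0579). It was called without minor trauma replicate 1 (0.996, adjusted p = 0.0498), shock replicate 4 (0.992, adjusted p = 0.0343), 1 h replicate 2 (1.18, adjusted p = 0.0412), 1 h replicate 3 (1.26, adjusted p = 0.0234) or 4.5 h replicate 1 (1.22, adjusted p = 0.0327). Over the other alternatives p ran from 0.00409 to 0.766. This step differed between the poly-A sets. On the spiked arrays the mean was 9.86 at 1 h and 9.66 at 4.5 h (-0.20, limma adjusted p = 0.766). On the other arrays it was 8.50 and 10.69 (2.17, adjusted p = 0.00409). Against control the 1 h rise was 4.30 in the spiked set and 2.86 in the other. What the sets share besides the spike-in is not given in the sources used here, and its part in the result was not tested.

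Cxcl11 was called against control at 4.5 h alone, and by less than the other two. Its level on the control arrays was 6.42, 6.13, 6.22, 5.96 and 5.77. It was 6.03, 5.80 and 5.65 after minor trauma and 5.70, 5.69, 5.05 and 5.74 in shock. All 4 shock arrays lay just below all controls, and the minor trauma arrays overlapped both. At 1 h the level was 6.01, 6.87, 7.02 and 5.68, and at 4.5 h it was 6.66, 7.41, 7.53 and 7.78. The 1 h arrays were spread from below the controls to above them, while every 4.5 h array lay above all control, minor trauma and shock arrays. Gaps of this kind were found for 12.1%, 11.7% and 17% of all genes, in that order.

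Against control (6.10 ± 0.25, SD, n = 5), Cxcl11 was 1.24 ± 0.255 (2.36-fold) higher at 4.5 h (7.34 ± 0.48, SD, n = 4, limma adjusted p = 0.000556) and ranked 584th among the rises. Of all genes tested, 15.1% were called higher there. At 1 h the difference was 0.29 ± 0.255 (limma adjusted p = 0.576). In shock it was -0.56 ± 0.255 (limma adjusted p = 0.328), a difference that was not called although the groups did not overlap, as they did not for 7.68% of all genes. From 1 h to 4.5 h it rose by 0.95 ± 0.269 (limma adjusted p = 0.0096), where 14.9% of all genes were called higher. This call was lost without scaling (0.818, adjusted p = 0.0877), and within the spiked set the step was 0.0841 (adjusted p = 0.896), since 1 h already stood at 6.95 on those 2 arrays and at 5.84 on the other 2. Over the alternatives p ran from 0.00136 to 0.896. The second Cxcl11 probe set lay above the array median on 1 of the 20 arrays and was left out by the filter. Tested without the filter it showed 0.44 ± 0.21 at 4.5 h against control (limma adjusted p = 0.168).

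**Figure D1:**
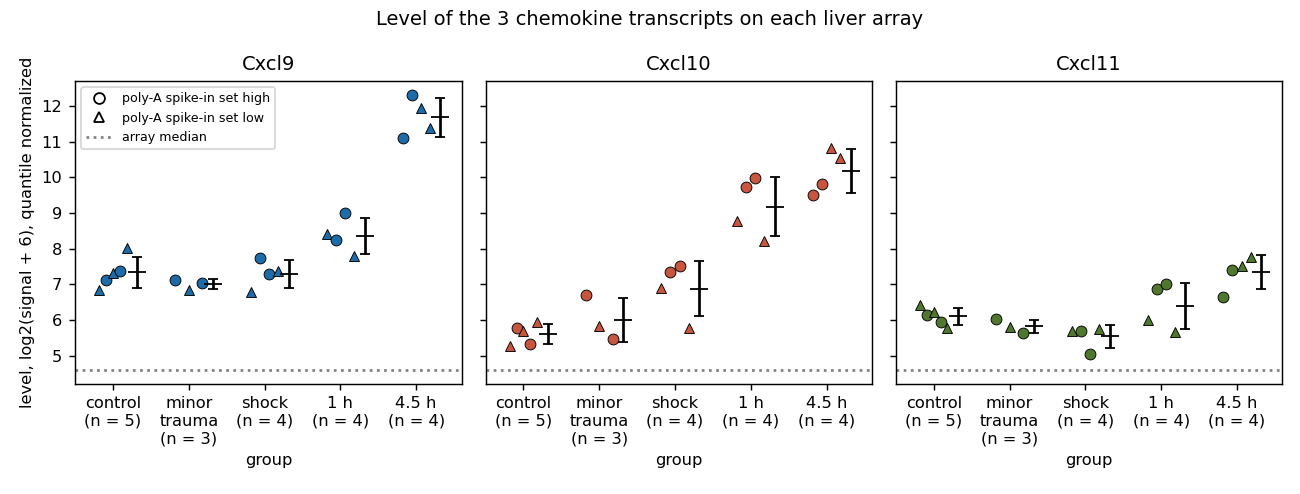
Level of each transcript on each of the 20 arrays by group, as log2 of the signal plus 6 after quantile normalization. Circles are the arrays of the spiked poly-A set, triangles the others, black marks the group mean with its SD, and the dotted line the array median. Cxcl9 stands apart at 4.5 h alone, Cxcl10 already at 1 h, and Cxcl11 by a smaller step at 4.5 h.

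The order of the groups follows from these levels. For Cxcl9, minor trauma, shock and control did not differ beyond their spread, and 4.5 h lay above all. The 1 h mean was called above control and minor trauma but not above shock. The 1 h arrays overlapped the controls, and both calls were lost under some alternatives. For Cxcl10, the order of means was control, minor trauma, shock, 1 h and 4.5 h, and the only step between neighbours that passed the test was shock to 1 h. For Cxcl11, the order was shock, minor trauma, control, 1 h and 4.5 h, and the only such step was 1 h to 4.5 h. All 3 genes passed limma's F test over the 5 groups (adjusted p = 1.06e-10 for Cxcl9, 9.92e-09 for Cxcl10 and 0.000164 for Cxcl11), as did 45.4% of all genes tested. The log2 difference at 1 h was 78.2% of that at 4.5 h for Cxcl10, 23.6% for Cxcl9 and 23.5% for Cxcl11. These shares differed between the poly-A sets, most for Cxcl11, at 91.3% in the spiked set (0.899 of 0.985) and -19.7% in the other (-0.298 of 1.51). For Cxcl10 they were 105% and 56.6%, and for Cxcl9 31% and 16.5%.

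**Figure D2:**
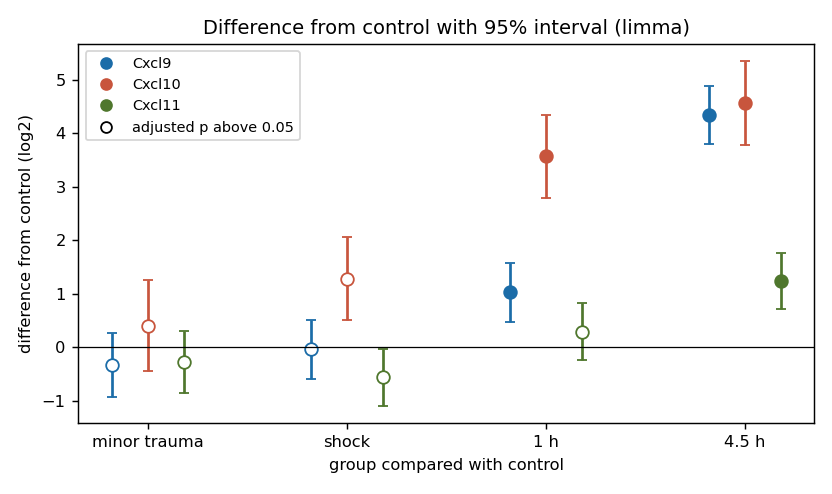
Difference of each group from control on the log2 scale with its 95% interval from limma, for Cxcl9 (blue), Cxcl10 (red) and Cxcl11 (green). Open points have an adjusted p above 0.05. At 1 h Cxcl10 is 3.57 above control and Cxcl9 1.03, while at 4.5 h they stand at 4.57 and 4.35.

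Whether the genes changed by different amounts was tested on the difference between them within each array, using the brightest probe set of each gene. The test was a two-sided exact permutation over the arrays of 2 groups, adjusted over 15 such tests. Probe sets of 1 gene also differed in change: at 4.5 h against control by 4.35 and 3.36 for Cxcl9, and 1.24 and 0.44 for Cxcl11. Differences between genes on the second probe sets were not tested. Relative to the control mean, the change in Cxcl9 minus that in Cxcl10 was -2.11, -3.21, -2.72 and -2.16 on the 1 h arrays. On the control arrays it was -0.17, -0.39, -0.10, 0.31 and 0.35. Every 1 h array lay below every control array, and the mean difference of -2.55 had the smallest p that 4 against 5 arrays can give (exact permutation p = 0.00794, adjusted 0.0298). At 4.5 h the values were -0.13, 0.76, -0.61 and -0.89, which overlapped the controls (mean -0.22, exact permutation p = 0.524, adjusted 0.605). From 1 h to 4.5 h the mean gain of Cxcl9 was 2.33 larger than that of Cxcl10, without overlap. This had the smallest p that 4 against 4 arrays can give, but did not pass after adjustment (exact permutation p = 0.0286, adjusted 0.0536). On the spiked arrays the values went from -3.21 and -2.72 at 1 h to -0.13 and 0.76 at 4.5 h. On the others they went from -2.11 and -2.16 to -0.61 and -0.89. In shock Cxcl9 changed by 1.32 less than Cxcl10, with overlap, and this did not pass after adjustment (difference -1.32, exact permutation p = 0.0238, adjusted 0.0536).

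Cxcl10 exceeded Cxcl11 in change by 1.84 in shock (exact permutation p = 0.0159, adjusted 0.0477), 3.28 at 1 h and 3.33 at 4.5 h (each exact permutation p = 0.00794, adjusted 0.0298). In shock the groups overlapped, with shock replicate 4 at 0.54 and control 5 at 0.666. Cxcl9 exceeded Cxcl11 by 3.11 at 4.5 h (exact permutation p = 0.00794, adjusted 0.0298), and by 0.736 at 1 h, where the groups overlapped (exact permutation p = 0.103, adjusted 0.146). From 1 h to 4.5 h Cxcl10 and Cxcl11 gained 0.994 and 0.948 (difference 0.046, exact permutation p = 0.943). With 1 array fewer these tests cannot reach as low a p, and the sizes then ranged from -2.69 to -2.33 for Cxcl9 against Cxcl10 at 1 h and from 1.46 to 2.27 for Cxcl10 against Cxcl11 in shock.

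**Figure D3:**
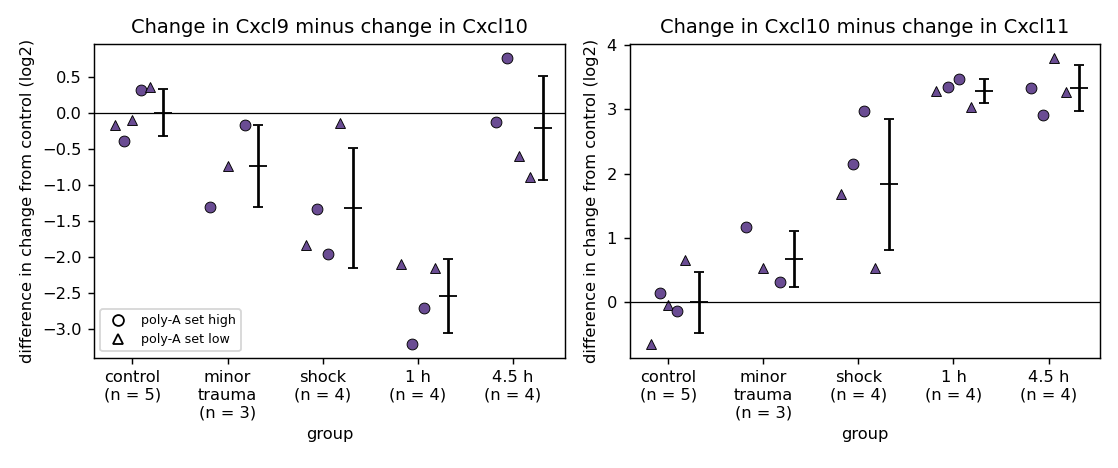
Within-array difference between the changes of 2 genes, on the log2 scale with the control mean set to 0, by group. Each point is 1 array (circles are the spiked poly-A set), and black marks are the group mean with its SD. The 4 arrays at 1 h lie at -3.21 to -2.11 for Cxcl9 against Cxcl10 and those at 4.5 h at -0.89 to 0.76, while Cxcl10 against Cxcl11 is at 2.91 to 3.79 at 4.5 h.

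Lists of genes induced by the signals known to induce these chemokines were followed on the same arrays. Of 15 NF-kB target genes, 7 rose in shock (median 0.983), 15 at 1 h (median 3.52) and 14 at 4.5 h (median 2.27), and limma called none lower in these comparisons (also 0 at an unadjusted p under 0.05). After minor trauma 2 rose, Cxcl1 and Bcl3 (median 0.436), 5 without control 5 and 0 without minor trauma 3. With the 2 genes below the array median in all controls, Sele and Tnf, set to their bounds, the medians were 0.855, 2.4 and 2.27. Of all genes, 2.03% were called higher and 1.08% lower in shock, 4.61% and 5.31% at 1 h, and 15.1% and 23.8% at 4.5 h, with medians between -0.09 and -0.03. The same shares are the background for the counts of every later list. The balance depended on scaling: without scaling the shares were 2.67% and 1.08% at 1 h and 6.15% and 16.6% at 4.5 h, and with median centring 4.22% and 2.75% at 1 h, so that more genes were called higher than lower there. In shock they were 1.33% and 0.218% without scaling and 1.9% and 0.623% with median centring. The neutrophil attractant Cxcl2 stood 5.55 ± 0.423 above control in shock, 6.91 at 1 h and 4.64 at 4.5 h (limma adjusted p = 3.07e-08, 6.99e-10 and 2.82e-08). The monocyte attractant Ccl2 rose by 4.42 ± 0.43 at 1 h (limma adjusted p = 3.02e-07) and 3.54 at 4.5 h (adjusted p = 1.45e-06), and Tnfaip3, which ends NF-kB signalling, by 4.99 ± 0.344 (adjusted p = 3.01e-09) and 3.39 (adjusted p = 1.23e-07). Between 1 h and 4.5 h, 9 of the 15 fell (median -0.884) and none rose, and in the same interval 18.2% of all genes were called lower. Cxcl10 shared the rise at 1 h with this list, and its later difference of 0.99 was not called.

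Of 18 type I interferon induced genes, limma called none in shock (median 0.0102, 1 higher and 1 lower at an unadjusted p under 0.05), 4 rose at 1 h (median 0.114) and all 18 rose at 4.5 h (median 3.97). The 4 were Ifit2, Rsad2, Mx2 and Oasl1, at 0.90 to 1.44. The largest rises at 4.5 h were those of Cmpk2, a mitochondrial nucleotide kinase, at 5.57 ± 0.266 (limma adjusted p = 2.59e-12), and of the antiviral genes Ifit1 at 5.51, Ifit2 at 5.40 and Ifit3 at 5.16 (adjusted p = 2.27e-11, 5.31e-12 and 1.34e-15). Of 19 interferon gamma induced genes, 1 rose and 1 fell in shock (median -0.12), 2 rose and 1 fell at 1 h (median -0.05), and 15 rose and 3 fell at 4.5 h (median 2.17). The guanylate-binding proteins Gbp2, Gbp6 and Gbp3 rose by 5.93 ± 0.249, 4.01 ± 0.304 and 3.75 ± 0.22 at 4.5 h, and the immunity-related GTPase Igtp by 3.57 ± 0.194 (limma adjusted p = 1e-12, 1.84e-09, 4.19e-11 and 1.39e-11). The 3 that fell at 4.5 h, H2-Aa (-0.93), H2-Ab1 (-0.52) and Cd74 (-0.89), serve antigen presentation by MHC class II, whose master regulator Ciita was not called (-0.16 ± 0.228, limma adjusted p = 0.623). The gene called higher in shock was Cd274, the checkpoint ligand PD-L1 (1.14), which with Gbp2 (0.87) also rose at 1 h (1.88), and the one called lower at both times was the GTPase Irgm2 (-0.84 and -0.74). Cxcl9 rose in the same interval as these interferon-induced lists, between 1 h and 4.5 h. In that interval 18 of 18 and 15 of 19 tested genes rose (list medians 3.77 and 2).

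**Figure D4:**
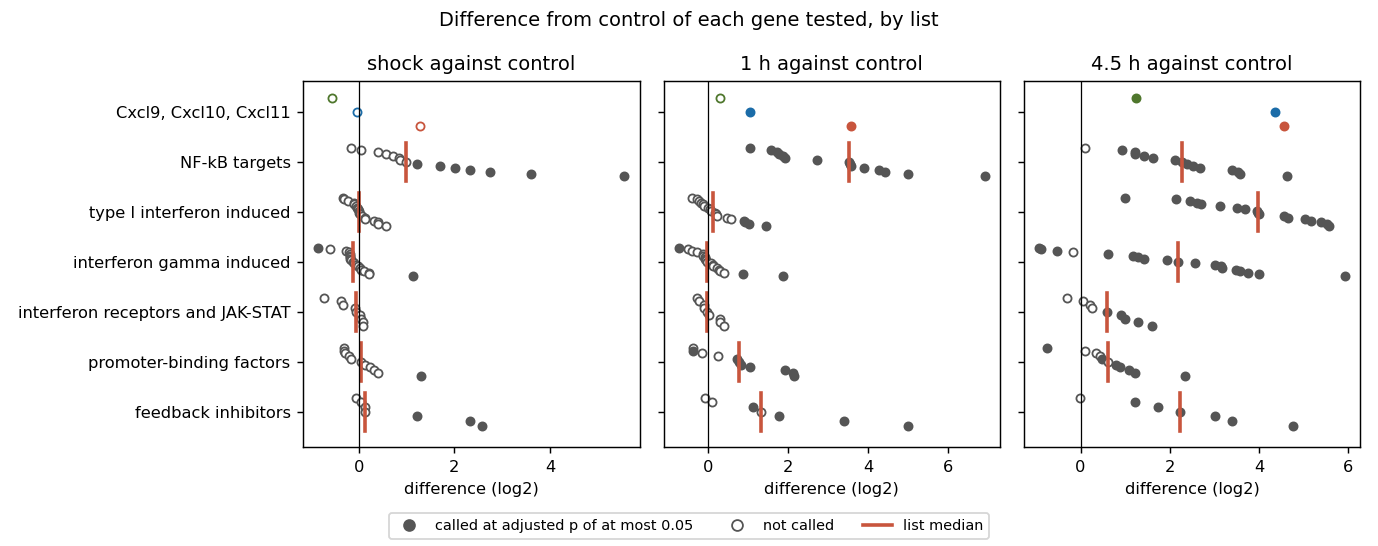
Difference from control of the 3 chemokines (Cxcl9 blue, Cxcl10 red, Cxcl11 green) and of each tested gene of 6 lists, in shock, at 1 h and at 4.5 h, on the log2 scale. Each point is 1 gene, filled where called, and the vertical bar is the list median. The NF-kB median is 3.52 at 1 h and 2.27 at 4.5 h, while the type I interferon median goes from 0.114 to 3.97.

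Interferon transcripts themselves were dim. Ifng, which encodes interferon gamma, lay below the array median on all 20 arrays, at 2.66 to 4.17, and was not tested. Of 9 interferon genes on the platform, 3 were tested (Ifnb1, Ifna1 and Ifna2), and limma called none in any comparison with control. Ifnb1 was 0.21 ± 0.32 above control at 4.5 h (limma adjusted p = 0.651), Ifna1 -0.25 ± 0.442 (adjusted p = 0.698) and Ifna2 -0.04 ± 0.319 (adjusted p = 0.939). At an unadjusted p under 0.05 the 1 difference was that of Ifnb1 in shock (0.82 ± 0.32, limma adjusted p = 0.216). All controls lay below the array median for Ifnb1, so the bound is at least 1.13-fold, and at 4.5 h no bound above 1 can be given. Of 4 tested cytokine genes that promote interferon gamma, limma called none at 1 h (1 higher at an unadjusted p under 0.05) and 2 at 4.5 h. These were Ebi3, the beta subunit of interleukin 27, at 1.20 ± 0.258 (limma adjusted p = 0.000806), and Il12a, a subunit of interleukin 12, at 1.10 ± 0.371 (adjusted p = 0.0229). Il12a was below the array median on all control arrays, so its bound is at least 1.01-fold, and its call was lost without control 5 (0.981, adjusted p = 0.0511) and without scaling (0.963, adjusted p = 0.0629). Il15 stood at 0.57 ± 0.333 (adjusted p = 0.194) and Il18 at -0.26 ± 0.114 (adjusted p = 0.0727), neither of them called.

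Of 9 tested genes of interferon receptors and JAK-STAT signalling, limma called none in shock (2 lower at an unadjusted p under 0.05) or at 1 h (1 higher) and 5 rose at 4.5 h (median 0.593). They were Stat2 (1.61 ± 0.22, limma adjusted p = 6.43e-06), its partner Irf9 (1.28 ± 0.133, adjusted p = 1.65e-07), the kinases Jak2 (1.01 ± 0.21, adjusted p = 0.00062) and Jak1 (0.59 ± 0.125, adjusted p = 0.000674) and the receptor chain Ifngr2 (0.90 ± 0.175, adjusted p = 0.00032). The receptor chains Ifngr1 (0.04), Ifnar1 (0.26) and Ifnar2 (0.22) and the kinase Tyk2 (-0.31) were not called. After minor trauma only Jak2 was called, at -0.95 ± 0.228 (limma adjusted p = 0.0289), where 1.37% of all genes were called lower. This call rested on the array labelled minor trauma 3. Without it the difference was -0.526 (limma adjusted p = 0.191), and it was also not called without scaling (-0.793, adjusted p = 0.266) or with only the 2 groups fitted (-0.948, adjusted p = 0.25).

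Among 11 tested transcription factors that bind the promoters of such chemokines, 7 rose and 1 fell at 1 h (median 0.758), and 6 rose and 1 fell at 4.5 h (median 0.616). Irf1, a factor for many interferon and NF-kB responsive genes, read 7.67 to 8.25 in controls, 7.24 to 8.16 in shock, 9.92 to 10.53 at 1 h and 8.34 to 8.83 at 4.5 h. It peaked at 1 h without overlap with any other group, 2.11 ± 0.171 above control (limma adjusted p = 2.51e-08), and then fell by 1.62 on the log2 scale (adjusted p = 8.02e-07). Irf7, which amplifies type I interferon responses, read 7.12 to 7.69 in controls, 7.18 to 7.56 at 1 h and 9.75 to 9.90 at 4.5 h, a rise of 2.35 ± 0.138 at 4.5 h (limma adjusted p = 4.35e-11). The NF-kB subunits Relb and Rela rose at both times, Relb by 1.91 and 1.22 and Rela by 0.76 and 0.89, and Irf8 by 0.81 and 1.09. The only one that fell, Irf3, was at -0.38 at 1 h and -0.75 at 4.5 h. Rel was the only one called in shock (1.30 ± 0.286, limma adjusted p = 0.0111, at least 1.52-fold because all controls lay below the array median).

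Of 7 feedback inhibitors, 3 rose in shock (Socs3, Nfkbia and Tnfaip3), 4 at 1 h (the same and Ptpn2) and 6 at 4.5 h. Usp18, which blocks the type I interferon receptor, read 6.78 to 7.72 in controls, 6.57 to 7.94 at 1 h and 11.73 to 12.19 at 4.5 h. It rose by 4.76 ± 0.25 at 4.5 h (limma adjusted p = 8.17e-12). Socs1, an inhibitor of Jak kinases that limits interferon gamma signalling, rose by 2.23 ± 0.44 at 4.5 h (adjusted p = 0.000375), and Socs3, which acts mainly on interleukin 6 signalling, by 2.58 in shock, 3.40 at 1 h and 3.02 at 4.5 h. Tnfaip3 and Nfkbia are also in the NF-kB list, as are 2 of the promoter-binding factors, Relb and Nfkb2.

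Of 4 genes that act on the chemokines after secretion, 1 rose at 1 h, and 2 rose and 1 fell at 4.5 h. Of all genes, 4.61% were called higher at 1 h, and 15.1% higher and 23.8% lower at 4.5 h. The receptor Cxcr3 was near the array median in all groups, at 4.55 to 5.14 in controls and 4.15 to 4.79 at 4.5 h, and was not called (-0.45 ± 0.198, limma adjusted p = 0.075). Ackr1, an atypical receptor on venules and red cells that binds many chemokines without signalling, read 4.71 to 5.76 in controls, 5.39 to 6.32 at 1 h and 7.61 to 8.51 at 4.5 h. It was 2.74 ± 0.235 (6.67-fold) above control at 4.5 h (limma adjusted p = 1.18e-08), without overlap, and 0.44 at 1 h (adjusted p = 0.288). Ackr3, an atypical receptor for Cxcl11 and Cxcl12, rose by 1.13 ± 0.267 at 1 h (limma adjusted p = 0.00782) and 0.82 at 4.5 h (adjusted p = 0.0189). Dpp4, the peptidase that trims these chemokines to weaker ligands, read 8.94 to 9.18 in controls and 8.10 to 8.37 at 4.5 h, and fell by 0.80 ± 0.13 on the log2 scale (limma adjusted p = 4.76e-05).

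Of 10 other CXC chemokines tested, 2 rose after minor trauma (where 2.07% of all genes were called higher), 3 rose in shock, 4 rose and 1 fell at 1 h, and 4 rose and 1 fell at 4.5 h (median 0.418). Cxcl2 and Cxcl1, ligands of the neutrophil receptor Cxcr2, rose in shock and at both resuscitation times, and Cxcl2 fell by 2.28 ± 0.446 from 1 h to 4.5 h (limma adjusted p = 0.000484). Cxcl1 stood 2.73 ± 0.612 above control in shock, 3.89 at 1 h and 3.58 at 4.5 h (limma adjusted p = 0.0129, 0.000168 and 8.64e-05). After minor trauma it read 11.53 ± 0.211 (SD, n = 3) and in shock 11.14 ± 1.16 (SD, n = 4). Minor trauma stood 3.13 ± 0.666 above control (limma adjusted p = 0.0199), and shock against minor trauma was -0.39 ± 0.697 (adjusted p = 0.781). Control 5 read 11.5 and the other controls 6.98 to 8.3. Cxcl13, which attracts B cells, rose by 2.79 ± 0.54 after minor trauma (limma adjusted p = 0.0151). Without minor trauma 3 neither was called there (3.16 with adjusted p = 0.107, 2.83 with adjusted p = 0.103), nor with only the 2 groups fitted, where the Cxcl1 call in shock was lost as well (adjusted p = 0.105). The platelet chemokine Ppbp rose by 0.75 ± 0.195 at 4.5 h, and Cxcl12, which holds blood cells in the marrow, fell by 0.50 at 1 h and fell by 1.43 at 4.5 h (adjusted p = 0.0233 and 5.71e-08).

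**Figure D5:**
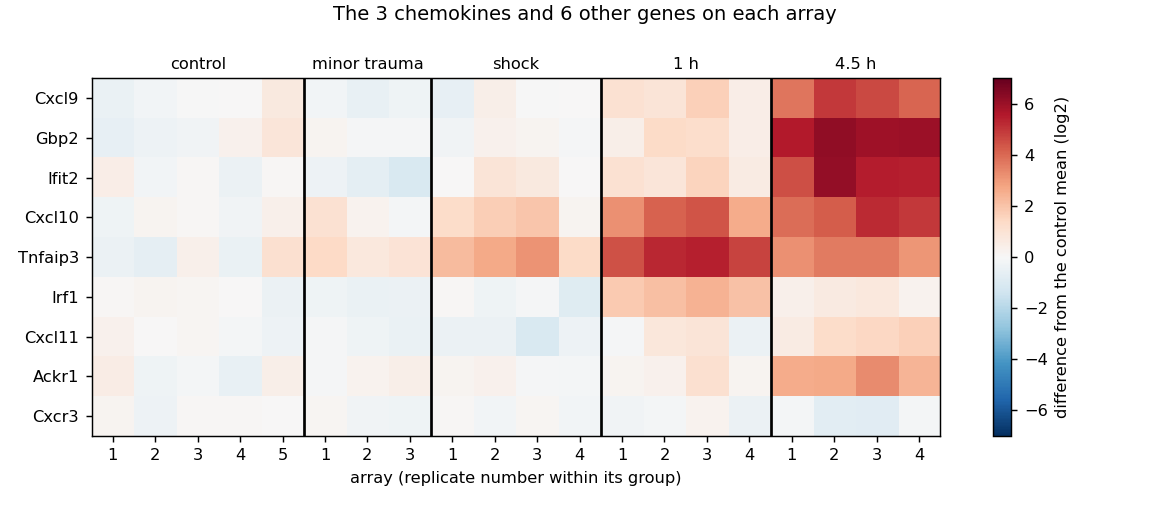
Difference from the control mean of the 3 chemokines and 6 other genes on each array, on the log2 scale, with arrays grouped and numbered by replicate. Gbp2 and Ifit2 stand above control at 4.5 h as Cxcl9 does, Tnfaip3 and Irf1 are highest at 1 h, and shock replicate 4 has the weakest Cxcl10 and Tnfaip3 of its group. The 6 genes were chosen for display after their values were seen.

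Markers of several cell types moved with the groups. In whole liver, fewer cells of a type and less RNA per cell cannot be told apart. At 4.5 h, 15.1% of all genes were called higher and 23.8% lower. Of 8 T cell markers on the platform, 2 were tested and limma called neither in the comparisons with control (nor did either have an unadjusted p under 0.05). Their summed signal was 75.8 to 97.7 in controls and 65.7 to 90.5 at 4.5 h, and Cd3g, Cd8b1, Cd2 and Cd5 never exceeded the array median. The summed natural killer cell markers read 116 to 158 in controls and 199 to 302 at 4.5 h, with 3 of 6 tested called higher (Gzma, Gzmb and Prf1) and Eomes never above the array median. Of 4 neutrophil markers tested, 2 (S100a8 and S100a9) were called higher after minor trauma (median 1.4, 4 at an unadjusted p under 0.05, and 0 called without minor trauma 3) and 4 in shock and at both later times. They summed to 54.2 to 73.9 in controls 1 to 4, 352 in control 5, 203 to 504 after minor trauma, 456 to 2220 in shock, 2510 to 3960 at 1 h and 3760 to 4260 at 4.5 h. Kupffer cell markers, 5 of 6 called lower at 4.5 h with Marco higher, summed to 1850 to 2950 in controls, 1490 to 1970 at 1 h and 791 to 1020 at 4.5 h. Of the sinusoidal endothelial markers 5 of 7 fell at 4.5 h and Lyve1 rose, with sums of 1610 to 2100 in controls and 1260 to 1410 at 4.5 h. Monocyte markers summed to 801 to 1130 in controls and 611 to 999 at 4.5 h, with Chil3 and F13a1 higher and Csf1r lower. Of 6 stellate cell markers tested, 3 fell at 4.5 h (Lrat, Colec11 and Reln, list median -0.481), with sums of 2420 to 3370 in controls and 2240 to 2450 at 4.5 h. Hepatocyte markers summed to 54500 to 60500 over all groups together, and of 7 tested, 1 was called higher and 1 lower at 4.5 h. The part of these shifts in the chemokine levels was not tested.

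Over the 20 arrays, the genes most like Cxcl9 by Pearson correlation were Gbp2 (0.982), Ifit2 (0.977), Rsad2 (0.965), Ifit1 (0.963) and Oasl1 (0.963). Those most like Cxcl10 were Acod1 (0.967), Marcksl1 (0.962), Akap12 (0.96), Ngp (0.957) and Tnip1 (0.957), and those most like Cxcl11 were Psmd10 (0.892), Slfn8 (0.877), F11r (0.86), Vezf1 (0.858) and Sod2 (0.846). These correlations are descriptions, since the arrays share the group differences. The 5 genes nearest to Cxcl10 stood 1.96 to 4.45 above control at 1 h and 2.19 to 5.59 at 4.5 h. The 5 nearest to Cxcl9 stood at 0.55 to 1.01 at 1 h and 4.56 to 5.93 at 4.5 h. They were picked for likeness on these same arrays, so their timing follows from the choice and is no separate evidence. After the group means were removed, the closest genes were Upk1b for Cxcl9 (0.816), Gngt2 for Cxcl10 (0.87) and 1810064F22Rik for Cxcl11 (0.802). The 3 chemokines correlated with each other at 0.726 to 0.831 over the arrays and at 0.263 to 0.486 after the group means were removed.

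In the RefSeq gene order of chromosome 5, the genes lie as Naaa, Sdad1, Cxcl9, Art3, Cxcl10, Cxcl11, Nup54 and Scarb2, so Art3 stands between Cxcl9 and Cxcl10. Art3, an ADP-ribosyltransferase, was not called at 1 h (0.13 ± 0.152, limma adjusted p = 0.695) or 4.5 h (-0.20 ± 0.152, adjusted p = 0.332). Among the other tested protein-coding genes within 3 of the cluster on either side, limma called none at 1 h (0 at an unadjusted p under 0.05). At 4.5 h Sdad1 was higher by 0.54 ± 0.166 (limma adjusted p = 0.0133) and Fam47e, beyond Scarb2, lower by 0.82 ± 0.275 (difference -0.82, adjusted p = 0.023). Nup54 and Scarb2, next on the Cxcl11 side, stood at -0.03 and 0.14 at 4.5 h and were not called.

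Promoters of the listed genes were read for the same letter patterns. The interferon-stimulated response element was found for 7 of 15 type I interferon induced genes (46.7%) and 8 of 17 interferon gamma induced genes (47.1%) with a window, and for 3.46% of all 27025 genes. It was in none of 11 NF-kB targets. The gamma-activated sequence was found for 8 of 17 interferon gamma induced genes (47.1%), 3 of 15 type I genes (20%), 3 of 11 NF-kB targets (27.3%) and 8.13% of all genes. The NF-kB consensus was found for 5 of 11 NF-kB targets (45.5%), 3 of 15 type I genes (20%), 3 of 17 interferon gamma induced genes (17.6%) and 8.23% of all genes. The AP-1 site was found for 3 of 11, 3 of 15 and 2 of 17 genes of these lists (27.3%, 20% and 11.8%) and 7.82% of all genes. Every share but that of the interferon-stimulated response element in NF-kB targets lay above the share of all genes, also for motifs that the list's name does not point to. The Cxcl10 window held exact matches to both the NF-kB consensus and the interferon-stimulated response element, and the Cxcl9 window to neither. Inexact sites were not looked for.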

How the data were processed

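The authors deposited intensity signals on a linear scale, 1 value per probe set and array, made with MAS5 per the submitters' processing notes (version not given in the sources used here). Per the labels' protocols, TRIzol RNA of whole liver gave oligo-dT primed cDNA and then biotin-labelled cRNA. Of the 45101 probe sets, 34945 had 1 gene in the platform annotation, 932 several, 9160 none, and 64 were controls. The arrays were not scaled (2% trimmed means 64.93 to 166.6), so log2(signal + 6) was quantile normalized over the 20 arrays. The fold changes are on this scale, which understates those of dim genes.

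A probe set was kept if above its own array median on at least 3 arrays, and the brightest kept one stood for its gene, leaving 12832 genes. They were fitted with limma 3.58.1 in R 4.3.3 as 5 group means with an intensity trend and 10 pairwise comparisons, a design tested on simulated data. Differences between members used exact permutation tests. A fold is "at least" where the lower group lay below the array median on all its arrays. The number of arrays, 3 to 5 a group, limits the precision. Same-numbered arrays of different groups did not deviate together (3 of 36 pairs with r over 0.1), so groups were not paired.

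The members and gene lists were chosen with earlier results of these data known. Named genes are the members, up to 4 per list with the largest called change at 4.5 h against control, all measured genes of the short pathway lists, the 5 most correlated genes and the neighbours. Irf1, Rel, Irf3 and genes named to account for a count of 5 or fewer were chosen after their values were seen. List counts come with medians and no set test. Figures were drawn with python 3.11.15, pandas 2.3.3, numpy 2.4.6 and matplotlib 3.10.9. Alternatives were scaling, pseudocount, filter, trend, weights, blocks, subsets of arrays, the second probe set and an exact permutation test, whose p is unadjusted. Genes of the lists without a matching probe set were not analysed here.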

Additional observations from a re-analysis of the deposited data

Results flagged for a closer look

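On the main Cxcl11 probe set, the array labelled shock replicate 3 read 5.054, and the next lowest of the 4 shock arrays read 5.6934. The gap was 0.928 of the group's range, above Dixon's limit for 4 arrays. On the second, dim Cxcl11 probe set the same array was the highest of its group, at 4.0434 against 3.523 for the next (0.891 of the range), so the 2 probe sets departed in opposite directions there. Of 20 groups of values examined in this way 2 stood out, and chance alone singles out about 1 in 20.

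The change from control differed between the 2 resuscitation times for Cxcl9, by 3.321 on the log2 scale (limma adjusted p = 1.17e-08), and for Cxcl11, by 0.9478 (adjusted p = 0.0096). Both tests are of the 4.5 h group against the 1 h group.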

How the results depend on the processing

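The rises at 4.5 h against control kept their direction and call under every alternative run for Cxcl9 (3.36 to 4.52) and Cxcl10 (4.10 to 5.04), as did that of Cxcl10 at 1 h (2.87 to 4.30). That of Cxcl11 kept them at 0.982 to 1.52, except on its second, dim probe set, tested with no filter and chosen after seeing the data. There it was 0.443 (not called), the step from 1 h was 0.452 (not called), 1 h against control was -0.00912 and shock against minor trauma 0.000481. Without scaling, counts of risen genes went from 4 to 1 for type I interferon induced genes at 1 h, from 7 to 3 at 1 h and 6 to 3 at 4.5 h for promoter-binding factors, from 5 to 3 for receptors and JAK-STAT and 4 to 2 for other CXC chemokines at 4.5 h, and Cd274 (1.06) and Irgm2 (-0.849) lost their calls in shock. The counts of risen interferon gamma and type I interferon induced genes at 4.5 h stayed at 14 to 15 and at 18. Smaller differences moved across the threshold, and the cause was not tested. As deposited, Cxcl9 at 1 h was 0.962 above control and 1.07 above minor trauma, Cxcl10 in shock 1.23 above control (called) and Cxcl11 0.818 higher at 4.5 h than at 1 h. With a pseudocount of 18 the Cxcl10 step from 1 h to 4.5 h was called (0.976). With array weights, calls were gained for Cxcl9 from shock to 1 h (1.10), Cxcl10 in shock (1.27) and Cxcl11 from shock to 1 h (0.874). With the replicate number as a block, which is only a shared number here, calls were gained for Cxcl9 from shock to 1 h (1.07), Cxcl10 in shock (1.36) and Cxcl10 from 1 h to 4.5 h (0.994), and no other call on the members changed. Fitting only the 2 groups compared called Cxcl10 in shock (1.28) and Cxcl9 from shock to 1 h (1.07). So did leaving out control 5 and minor trauma 3 together (1.36 and 1.06). Within the spiked poly-A set Cxcl9 at 1 h was 1.38 above control and 1.55 above minor trauma, Cxcl10 in shock 1.87 above control, and the steps from 1 h to 4.5 h were -0.203 for Cxcl10 and 0.0841 for Cxcl11. Within the other set Cxcl9 at 1 h was 0.703 above control and 1.26 above minor trauma, Cxcl10 rose by 2.16 from shock to 1 h (not called) and by 2.17 from 1 h to 4.5 h, and Cxcl11 at 1 h was at -0.301. The second Cxcl9 probe set gave 0.566 and 0.559 at 1 h against control and minor trauma, 0.00688 for minor trauma against control and -0.00761 for shock against minor trauma. The uncalled Cxcl9 difference in shock turned positive with array weights (0.00674), with the block and without control 5 and minor trauma 3 (both 0.132) and in the spiked set (0.264).

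By the exact permutation test, unadjusted and two-sided, Cxcl9 from shock to 1 h (1.07), Cxcl10 (1.28) and Cxcl11 (-0.555) in shock passed, and Cxcl11 at 4.5 h against minor trauma (1.51) and 1 h (0.948) did not. The difference in change between Cxcl9 and Cxcl10 in shock passed without a pseudocount (-1.43). The uncalled differences between Cxcl9 and Cxcl11 after minor trauma turned to 0.00782 and between Cxcl10 and Cxcl11 from 1 h to 4.5 h to -0.0293, both as deposited and with median centring, and the latter to -0.00542 without a pseudocount.

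Leaving out each array in turn gave 0.814 to 1.22 for Cxcl9 at 1 h, -0.184 to 0.132 in shock and 0.854 to 1.26 from shock to 1 h. It gave 1.07 to 1.64 for Cxcl10 in shock and 0.673 to 1.26 from 1 h to 4.5 h. The differences in change between members ranged from -2.69 to -2.33 (Cxcl9 against Cxcl10 at 1 h), -1.71 to -1.11 (in shock) and -0.546 to 0.00415 (at 4.5 h). For Cxcl9 against Cxcl11 they ranged from 2.91 to 3.36 at 4.5 h and from -0.263 to 0.193 after minor trauma. For Cxcl10 against Cxcl11 they ranged from 1.46 to 2.27 in shock, 3.12 to 3.45 at 1 h, 3.17 to 3.50 at 4.5 h and -0.109 to 0.185 from 1 h to 4.5 h. The called differences among these lost their calls without 13 of the 20 arrays (16 for Cxcl10 against Cxcl11 in shock). Fewer reassignments are then possible, in the test itself or in others that are adjusted together with it. That leave-out, and the alternatives for lists other than the interferon-induced ones at 4.5 h, were chosen after seeing the data. Signals near the array median, such as that of Cxcr3, or below it, such as those of Ifng and the second Cxcl11 probe set, limit what can be seen for those transcripts.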
